A study of Homo sapiens with 12 samples.

Results

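The genes WFDC2, SLPI, PI3 and WFDC3, which lie together on chromosome 20q13 and encode proteins with the whey acidic protein (WAP) domain, were followed through a pair of gemcitabine (GEM)-resistant pancreatic cancer cell lines and their parental lines. They were taken by name, 4 genes out of the 58302 listed, after earlier results of these data had shown that some of them differed between the lines. Their levels and differences are therefore given as descriptions, without tests. GEM is a nucleoside analog used against pancreatic cancer. BxPC-3 and CFPAC-1 are established lines from human pancreatic ductal adenocarcinoma, from which BxPC-3-GR and CFPAC-1-GR had been derived by exposure to rising GEM concentrations. BxPC-3-GR had ended at 1000 nmol/L and CFPAC-1-GR at 400 nmol/L of GEM. Each of the 4 lines had 3 libraries, 12 in all, and the parental lines had no such exposure. The labels record the morphology of BxPC-3-GR as mesenchymal and that of the other lines as epithelial. For the CFPAC-1 lines the labels and the methods name different media. Whether a resistant line is 1 clone, and whether replicates were separate cultures, is not given in the sources used here, so the spread between replicates may be technical.

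The WAP domain is a small fold held together by disulfide bonds between cysteines, and many proteins that carry it are secreted onto mucosal surfaces. SLPI, the secretory leukocyte protease inhibitor, and the product of PI3, elafin, block serine proteases released by neutrophils and also act against microbes. Elafin can be anchored in the extracellular matrix by transglutaminase. WFDC2 encodes HE4, a secreted glycoprotein that is measured in serum as a marker of ovarian cancer and whose action as an inhibitor is less settled. WFDC3 encodes a less studied protein with several WAP domains.

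In order along the chromosome (GRCh38, chromosome 20), PI3 lay at 45174876 to 45176544 on the plus strand, SLPI at 45252239 to 45254564 on the minus strand, WFDC2 at 45469706 to 45481532 on the plus strand and WFDC3 at 45747944 to 45791932 on the minus strand. PI3 and SLPI were 75.7 kb apart, SLPI and WFDC2 215.1 kb, and WFDC2 and WFDC3 266.4 kb. In GENCODE 29, PI3 and SLPI had 1 transcript each, WFDC2 had 7 and WFDC3 had 13. The conserved stretch of the WAP domain was searched for with a pattern that fixes the spacing of the cysteines, so every copy has the same spacing by design. The pattern also asks for aspartate or asparagine at 1 position. It was found once in PI3, at 2 places in SLPI, at 2 in WFDC2 and at 4 in WFDC3. These 42 coding bases are shown for each copy because they are what the 4 genes have in common. They are written 5′ to 3′ on the strand of the gene, from the GENCODE 29 transcripts, with the codons for cysteine in capitals.
PI3, exon 2, chr20:45176055-45176096: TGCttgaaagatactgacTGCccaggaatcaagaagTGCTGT
SLPI, copy 1, exon 2, chr20:45253627-45253668: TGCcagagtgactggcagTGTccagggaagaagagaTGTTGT
SLPI, copy 2, exon 3, chr20:45253042-45253083: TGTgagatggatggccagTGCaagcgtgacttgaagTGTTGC
WFDC2, copy 1, exon 2, chr20:45470454-45470495: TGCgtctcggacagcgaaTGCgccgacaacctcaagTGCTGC
WFDC2, copy 2, exon 3, chr20:45480007-45480048: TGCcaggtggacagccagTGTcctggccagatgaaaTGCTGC
WFDC3, copy 1, exon 3, chr20:45788971-45789012: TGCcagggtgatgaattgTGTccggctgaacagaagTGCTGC
WFDC3, copy 2, exon 4, chr20:45787888-45787929: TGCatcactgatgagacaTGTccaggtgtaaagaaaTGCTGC
WFDC3, copy 3, exon 5, chr20:45777118-45777159: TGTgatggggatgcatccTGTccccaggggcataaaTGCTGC
WFDC3, copy 4, exon 6, chr20:45775511-45775552: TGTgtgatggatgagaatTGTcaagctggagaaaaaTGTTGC

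Every copy lay within 1 exon. The most alike pair of copies came from different genes, copy 2 of WFDC2 and copy 1 of SLPI, which had the same base at 30 of 42 positions (71.4%). The least alike pair was copy 1 of WFDC2 and copy 4 of WFDC3, with 18 of 42 (42.9%). The cysteine codons, which the search fixed, and the codon for aspartate or asparagine that it asked for count in these shares.

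The authors deposited FPKM, in which fragments are divided by the length of the gene and the depth of the library, so a level is given per length and can be set beside that of another gene as far as the gene lengths used by the authors hold. The implied depth was 12600000 to 25200000 mapped fragments per library. The cells carried the markers of ductal epithelium, with KRT7, KRT8, KRT18, KRT19, EPCAM and CDH1 each reaching 1 FPKM or more in every line, BxPC-3-GR included. None of 4 endothelial markers reached 1 FPKM in any library, the only one of 6 leukocyte markers to do so was CD14, in the CFPAC-1 lines, and the only one of 5 fibroblast markers was COL1A1, in the lines other than BxPC-3. In bulk libraries like these, a smaller number of cells of one kind and less RNA per cell cannot be told apart.

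SLPI was the most abundant of the 4 genes in every library. BxPC-3 replicates 1, 2 and 3 gave 289.7, 342 and 317 FPKM, BxPC-3-GR gave 216, 237 and 252, CFPAC-1 gave 169, 181 and 174, and CFPAC-1-GR gave 68.8, 73.0 and 63.0. BxPC-3 was thus the highest line, followed by BxPC-3-GR, then CFPAC-1, and CFPAC-1-GR was the lowest, with no overlap between neighbours in that order. Among all genes of a library sorted by FPKM, SLPI stood between 66th and 80th in BxPC-3 and between 408th and 465th in CFPAC-1-GR.

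PI3 was at its highest in BxPC-3 and its lowest in the resistant line derived from it. Its FPKM in BxPC-3 replicates 1, 2 and 3 was 196, 200.2 and 191, against 11.9, 12.7 and 11.7 in BxPC-3-GR. CFPAC-1 had 40.8, 39.2 and 36.9 FPKM and CFPAC-1-GR had 33.9, 31.9 and 25.9. The order was therefore BxPC-3, CFPAC-1, CFPAC-1-GR and BxPC-3-GR, again without overlap, although the CFPAC-1 and CFPAC-1-GR libraries came within 3 FPKM of each other. In rank, PI3 went from 126th to 132nd in BxPC-3 to between 2487th and 2704th in BxPC-3-GR.

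WFDC2 had nearly the opposite order. Its FPKM was 1.97, 1.72 and 1.54 in BxPC-3 replicates 1, 2 and 3, and 55.9, 60.0 and 68.8 in BxPC-3-GR. It was 52.1, 54.1 and 53.0 in CFPAC-1 and 13.5, 17.4 and 16.1 in CFPAC-1-GR. BxPC-3 was the line that stood apart, and BxPC-3-GR was only 1.16-fold above CFPAC-1, with ranges that did not overlap. In rank, WFDC2 stood between 9099th and 10101st in BxPC-3 and between 374th and 472nd in BxPC-3-GR.

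WFDC3 stayed below 1 FPKM in every library. BxPC-3 replicates 1, 2 and 3 had 0.103, 0.104 and 0.0750 FPKM and BxPC-3-GR had 0.590, 0.640 and 0.825. CFPAC-1 had 0.329, 0.406 and 0.499 FPKM and CFPAC-1-GR had 0.129, 0.179 and 0.0659. The order of the lines was that of WFDC2 (BxPC-3-GR, CFPAC-1, CFPAC-1-GR, BxPC-3), but the lowest pair overlapped. The steps between low values place 20 fragments of WFDC3 in the 3 BxPC-3 libraries together, 192 in BxPC-3-GR, 70 in CFPAC-1 and 27 in CFPAC-1-GR. The exact Poisson intervals at 95%, which cover counting error only, ran from 0.0243 to 0.175 FPKM for BxPC-3 replicate 3 (5 fragments) and from 0.654 to 1.03 FPKM for BxPC-3-GR replicate 3 (80 fragments). These counts rest on a gene length of 3906 bases inferred from the values, which is longer than the 2405 bases of exon in GENCODE 29. The small genes SPINT5P and RNU6ATAC38P lie within WFDC3, and whether the counting used strand is not given in the sources used here.

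**Figure D1:**
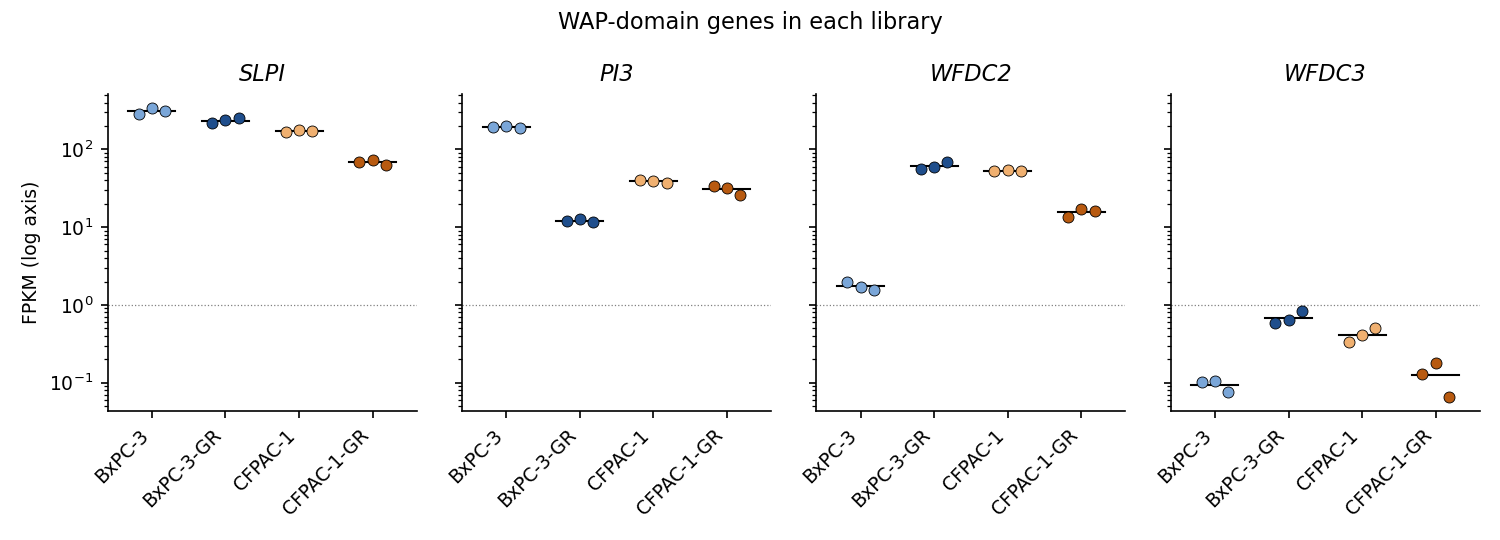
Each point is 1 library and each bar is the mean of the 3 libraries of a line, with FPKM on a log axis and a dotted line at 1 FPKM. SLPI and PI3 are highest in BxPC-3 (means of 316 and 195 FPKM), where WFDC2 and WFDC3 are lowest (1.74 and 0.0942 FPKM).

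**Figure D2:**
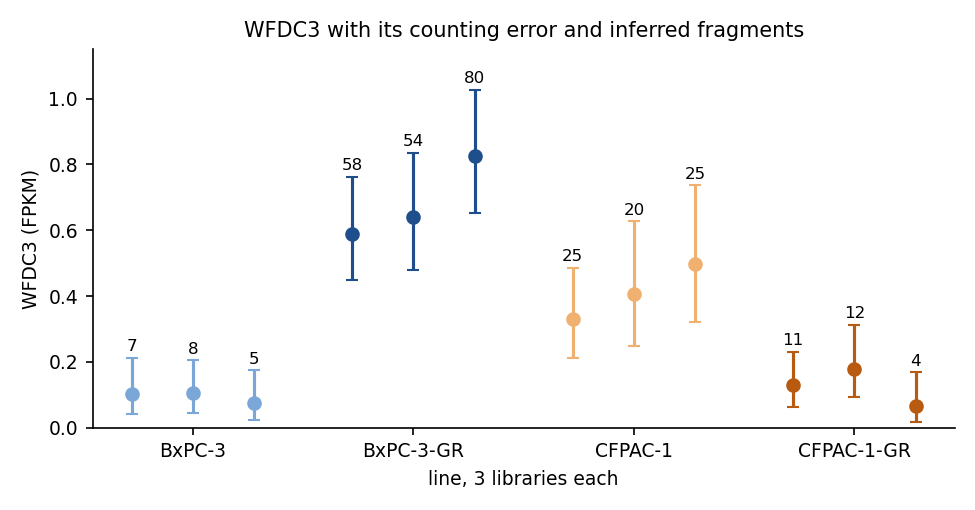
WFDC3 in each library on a linear FPKM axis, with exact Poisson intervals at 95% for counting error and the inferred number of fragments above each point. The BxPC-3-GR libraries (54 to 80 fragments) lie above all others, and the intervals of BxPC-3 and CFPAC-1-GR overlap.

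The comparison of BxPC-3-GR with BxPC-3 asked what differed after resistance had been acquired. The mean of WFDC2 was 61.6 ± 6.60 FPKM in BxPC-3-GR (SD, n = 3) against 1.74 ± 0.218 in BxPC-3, 35.3-fold higher. PI3 averaged 12.1 ± 0.533 against 195 ± 4.82 FPKM, 16.2-fold lower, so these 2 genes, whose starts are 294.8 kb apart, differed in opposite directions. SLPI lies between them, at 235 ± 17.9 against 316 ± 26.1 FPKM, 1.35-fold lower. WFDC3, beyond WFDC2, was at 0.685 ± 0.124 against 0.0942 ± 0.0167 FPKM, 7.27-fold higher.

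On the scale used for all genes, the difference in mean log2(FPKM + 1) or log2FC, the values were 4.51 for WFDC2 (SE 0.10), -0.43 for SLPI (SE 0.087), -3.91 for PI3 (SE 0.053) and 0.62 for WFDC3 (SE 0.062). This scale understates the differences of low genes, and for WFDC3 the log2 ratio of the mean FPKM was 2.86. Of the 11710 genes tested, those whose mean over the 6 libraries reached 1 FPKM, WFDC2 had the largest positive log2FC and PI3 the 4th largest negative one. SLPI was 2327th from the most negative, and WFDC3 was below the minimum level. For all 4 genes the 3 libraries of one line lay entirely on one side of the other's, as they did for 66.1% of the genes tested. Differentially expressed genes are called SDE here where the Benjamini-Hochberg adjusted p of limma was below 0.05 and the absolute log2FC was above 1, which held for 4.14% of the tested genes upward and 3.62% downward. Since the 4 genes were chosen from this contrast, nothing is read from where they stand in it.

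In CFPAC-1-GR all 4 genes were lower than in CFPAC-1. WFDC2 averaged 15.7 ± 1.96 FPKM (SD, n = 3) against 53.1 ± 1.01, 3.39-fold lower. SLPI averaged 68.3 ± 5.01 against 174 ± 5.78 FPKM, 2.55-fold lower. PI3 was at 30.6 ± 4.19 against 38.9 ± 1.95 FPKM, 1.27-fold lower, and WFDC3 at 0.125 ± 0.0569 against 0.412 ± 0.0849 FPKM, 3.30-fold lower. The libraries of the lines did not overlap for any of the 4, which was the case for 82.1% of the 12051 genes tested in this pair. Here 20.5% of tested genes (2473) were SDE upward and 11.7% (1407) downward, a split that turned to 1743 and 2280 when libraries were scaled by the median of ratios and to 1487 and 2646 when scaled by the upper quartile.

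The log2FC in CFPAC-1-GR was -1.71 for WFDC2 (SE 0.097), -1.34 for SLPI (SE 0.077), -0.35 for PI3 (SE 0.11) and -0.33 for WFDC3 (SE 0.065). Counted from the most negative, WFDC2 was 170th, SLPI 632nd and PI3 3943rd of 12051. In this pair log2FC went down with the GC content of the gene, with Spearman's rho of -0.777 across 12039 genes of the same libraries, against 0.0388 across 11693 genes in BxPC-3-GR. The 4 genes have GC contents of 51.1% (WFDC2) to 54.1% (WFDC3), above the median of 49.2% of the genes tested in CFPAC-1-GR. After a correction for GC content and length the log2FC was -1.44 for WFDC2 and -1.01 for SLPI, but 0.10 for PI3 and 0.13 for WFDC3. The lower level of PI3 and WFDC3 in CFPAC-1-GR thus turned with this correction, though not with median-of-ratios scaling (-0.64 and -0.39) or upper-quartile scaling (-0.77 and -0.42). In BxPC-3-GR the corrected values were 4.59, -0.33, -3.81 and 0.69 for WFDC2, SLPI, PI3 and WFDC3. The correction was fitted without genes below 1 FPKM, so for WFDC3 it was carried over from genes of higher level. For WFDC3 in CFPAC-1-GR the log2 ratio of the mean FPKM was -1.72, against -0.33 on the scale that was corrected. The summed FPKM of the 6 epithelial markers was also lower in CFPAC-1-GR, at 1156 to 1347 against 2636 to 2914 in CFPAC-1, and its part in these differences was not tested. As deposited, the 4 keratins were lower (KRT19 had means of 531 and 1573 FPKM), whereas EPCAM (log2FC 0.45, adjusted p = 0.00167) and CDH1 (0.77, adjusted p = 0.00104) were higher in CFPAC-1-GR, short of the limit of 1. After the correction the log2FC was 0.08 for KRT7, -0.63 for KRT8, -0.56 for KRT18 and -0.62 for KRT19. For EPCAM it was 0.25 and for CDH1 0.49.

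The difference between the responses, CFPAC-1-GR minus CFPAC-1 less BxPC-3-GR minus BxPC-3 on the log2(FPKM + 1) scale, was -6.21 for WFDC2 (SE 0.14), -0.92 for SLPI (SE 0.12), 3.56 for PI3 (SE 0.13) and -0.95 for WFDC3 (SE 0.090). For WFDC3 it was -3.21 with a pseudocount of 0.1 and -0.55 with the correction, and for SLPI -1.39 with upper-quartile scaling. In this contrast 38.0% of 12210 genes were SDE. In FPKM as deposited, WFDC2 and WFDC3 were higher in BxPC-3-GR and lower in CFPAC-1-GR than in the parental line. SLPI and PI3 were lower in both resistant lines, also as deposited.

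The levels of the 4 genes also differed between the parental lines. WFDC2 was 30.4-fold lower in BxPC-3 than in CFPAC-1 and WFDC3 4.37-fold lower, while PI3 was 5.02-fold higher and SLPI 1.81-fold higher. No library of one parental line overlapped the other for any of the 4 genes, which held for 85.7% of the 12210 genes tested between them (43.3% were SDE). Between the resistant lines, WFDC2 was 3.93-fold higher in BxPC-3-GR than in CFPAC-1-GR, SLPI 3.44-fold higher and WFDC3 5.49-fold higher, while PI3 was 2.53-fold lower. WFDC2 and WFDC3 therefore had opposite orders in the parental and in the resistant pair, and so did PI3, whereas SLPI was higher in the BxPC-3 line in both. With the GC and length correction the parental difference of WFDC3, BxPC-3 minus CFPAC-1, turned from -0.37 to 0.27 (log2FC). The FPKM + 1 scale shrinks the differences of low genes, and for WFDC3 the log2 ratio of the mean FPKM was -2.13. The correction was fitted without genes this low, so the opposite order of WFDC3 is given for FPKM without it. What part GC content and length have in that order was not tested.

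Because FPKM is per length, the 4 genes were set against their sum. The summed level was 513 ± 28.5 FPKM (SD, n = 3) in BxPC-3 and 309 ± 24.3 in BxPC-3-GR. It was 267 ± 6.45 in CFPAC-1 and 115 ± 8.80 in CFPAC-1-GR. SLPI held most of it everywhere, at 61.5% ± 1.83, 76.0% ± 0.409, 65.3% ± 0.773 and 59.6% ± 0.444 in the same order. PI3 held 38.1% ± 1.77 in BxPC-3 and 3.92% ± 0.370 in BxPC-3-GR, and 14.6% ± 0.834 and 26.6% ± 2.32 in CFPAC-1 and CFPAC-1-GR. The share of PI3 was thus smaller in one resistant line and larger in the other than in its parental line, with no overlap in either pair.

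WFDC2 held 0.341% ± 0.0554 of the sum in BxPC-3, 19.9% ± 0.705 in BxPC-3-GR, 19.9% ± 0.174 in CFPAC-1 and 13.7% ± 1.90 in CFPAC-1-GR, and the share of WFDC3 was at most 0.248% in any library. PI3 was 113 ± 12.6 times as abundant as WFDC2 in BxPC-3 (SD, n = 3) and 0.198 ± 0.0247 times in BxPC-3-GR. In the CFPAC-1 pair this ratio was 0.734 ± 0.0443 in the parental and 1.98 ± 0.469 in the resistant line. The ratio of SLPI to WFDC2 was 184 ± 32.2 in BxPC-3 and lay between 3.24 and 5.09 in every library of the other 3 lines. Within a library such ratios do not depend on how the library as a whole was scaled. They do depend on the gene lengths used by the authors, which the values put at 2248 bases for WFDC2 and 3906 for WFDC3, against 1382 and 2405 bases of exon in GENCODE 29.

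**Figure D3:**
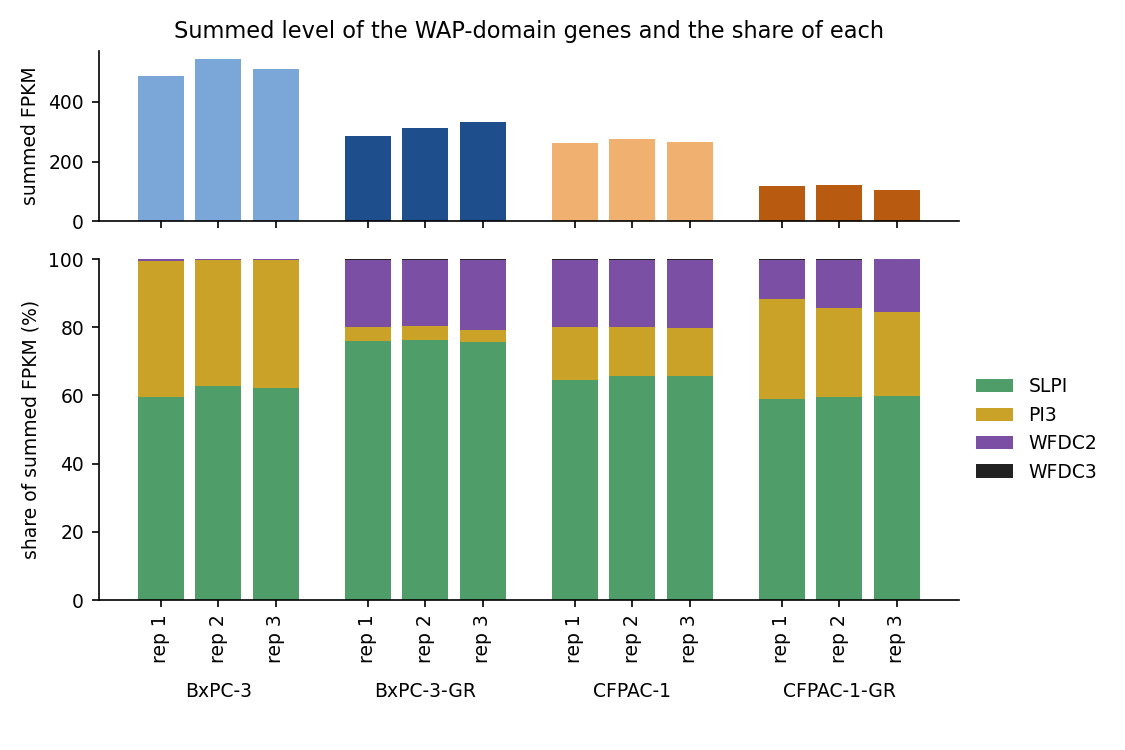
Summed FPKM of SLPI, PI3, WFDC2 and WFDC3 in each library (upper bars, from 0) and the percentage of that sum held by each gene (lower bars). WFDC2 is a thin band in BxPC-3 (0.341%) and a broad one in BxPC-3-GR and CFPAC-1 (19.9% in both).

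Over the 12 libraries, Pearson's r between log2(FPKM + 1) values was -0.89 for WFDC2 with PI3, 0.83 for WFDC2 with WFDC3, -0.74 for PI3 with WFDC3, 0.38 for SLPI with PI3, 0.28 for SLPI with WFDC3 and -0.23 for WFDC2 with SLPI. The libraries form 4 groups of 3, so these values describe 4 lines and are given without tests. Among 7671 genes compared, whose highest and lowest line means differed by 1 or more on this scale, the levels most like those of WFDC2 were of TTC22 (r = 0.993), ZSWIM4 (0.99) and MYH14 (0.99, a nonmuscle myosin heavy chain). Those most like SLPI were SFN (r = 0.99, 14-3-3 sigma), FSCN1 (0.988, the actin-bundling protein fascin) and GPC1 (0.983, a cell surface proteoglycan).

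For PI3 the nearest were UTP4 (r = 0.989), the histone gene HIST2H4B (0.984), which shares its sequence with other histone genes so that its level is uncertain, and PPP1R14C (0.983). For WFDC3 they were UCP2 (r = 0.981, a mitochondrial carrier), LRRC26 (0.969) and CA9 (0.964, a carbonic anhydrase). The mean FPKM of CA9 was 0.213 in BxPC-3, 22.2 in BxPC-3-GR, 4.26 in CFPAC-1 and 0.810 in CFPAC-1-GR, in the same order as WFDC3. SFN had means of 621, 394, 239 and 78.3 FPKM in those lines, the order of SLPI.

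The remaining WAP-domain genes were hardly detected. Of 18 looked up, 11 were listed at 0 in every library and 14 stayed below 0.1 FPKM in every library. The 18 include SPINT3 and SPINT4, Kunitz-type genes of the same locus without a WAP domain, and both are among the 11 at 0. WFDC21P, an expressed pseudogene outside 20q13, was the only one whose mean reached 1 FPKM in a line, at 1.04 in CFPAC-1-GR, 0.953 in CFPAC-1, 0.410 in BxPC-3-GR and 0.104 in BxPC-3. None could be tested in either pair at the minimum of 1 FPKM.

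Genes around the 4 were compared to see how the rest of this stretch of 20q13 stood. Within 500 kb on either side there were 79 other genes, of which 22 were tested in BxPC-3-GR. Only PLTP, which encodes a phospholipid transfer protein, was SDE there (4.55% of 22, against 7.76% of all genes tested). It fell by 1.02 on the log2 scale (SE 0.052, adjusted p = 2.87e-05), just past the limit of 1, and was short of it without BxPC-3-GR replicate 1 (-0.99), with the GC and length correction (-0.99) and with median-of-ratios scaling (-0.97). The median log2FC of the 22 was 0.28, against -0.05 for all genes tested, and 17 of them were above 0. WFDC2 (4.51) and PI3 (-3.91) are drawn beside the neighbours in the plot of log2FC by position. They were chosen with these values known, so nothing is read from the smaller values of the neighbours.

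In CFPAC-1-GR 23 neighbours were tested, of which 1 rose and 5 fell (26.1%, against 32.2% of all genes tested). PABPC1L, related to the poly(A)-binding protein, rose by 1.41 (log2FC, SE 0.077, adjusted p = 7.96e-06). PLTP had a log2FC of -1.67 (adjusted p = 6.25e-06), DBNDD2 of -1.5 (5.29e-05), PCIF1 of -1.27 (6.29e-06), ACOT8 of -1.07 (5.68e-05) and RPS2P7 of -1.56 (0.000123). RPS2P7 is a pseudogene of a ribosomal protein and DBNDD2 overlaps a readthrough gene, so both are uncertain. The median of the 23 was -0.69, against 0.13 for all genes tested, with 19 below 0. With the GC and length correction the median was -0.26 and the calls were 1 up and 2 down, with PLTP at -0.83, RPS2P7 at -0.59, PCIF1 at -0.46 and ACOT8 at -0.97. ACOT8 was at -0.99 without CFPAC-1 replicate 1. SLPI (-1.34) lay within the range of these neighbours, and WFDC2 (-1.71) was slightly below PLTP, the lowest of them.

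The tested genes nearest to WFDC2 were PIGT, 12.8 kb before it, and RPS2P7, 159 kb after it. In BxPC-3-GR PIGT had a log2FC of 0.11 (SE 0.066, adjusted p = 0.190) and RPS2P7 of 0.05 (SE 0.053, adjusted p = 0.444), beside 4.51 for WFDC2. In CFPAC-1-GR PIGT had -0.97 (SE 0.071, adjusted p = 2.09e-05), on the side of WFDC2, and passed the limit with the correction (-1.53), with median-of-ratios (-1.20) and upper-quartile scaling (-1.30) and with a pseudocount of 0.1 (-1.21). SDC4, a heparan sulfate proteoglycan gene after SLPI and the nearest gene tested in both pairs for PI3 and SLPI, had 0.75 (SE 0.057, adjusted p = 0.000121) in BxPC-3-GR and -0.15 (SE 0.11, adjusted p = 0.222) in CFPAC-1-GR. Before PI3, the potassium channel gene KCNS1 was listed at 0 in the BxPC-3 lines and had a log2FC of -0.05 (SE 0.080, adjusted p = 0.591) in CFPAC-1-GR.

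DNTTIP1, a subunit of a histone deacetylase complex, starts 5 bases from the start of WFDC3 (45791937 and 45791932) and runs the other way. Its mean was 29.03 ± 1.62 FPKM in BxPC-3, 44.6 ± 0.771 in BxPC-3-GR, 30.9 ± 2.57 in CFPAC-1 and 18.3 ± 1.82 in CFPAC-1-GR (SD, n = 3). Its log2FC was 0.60 (SE 0.058, adjusted p = 0.000288) in BxPC-3-GR and -0.72 (SE 0.098, adjusted p = 0.000389) in CFPAC-1-GR, in both cases on the side of WFDC3 (0.62 and -0.33) and short of the limit of 1. The value in CFPAC-1-GR was -0.05 after the correction, and past the limit with median-of-ratios (-1.01) and upper-quartile scaling (-1.14).

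**Figure D4:**
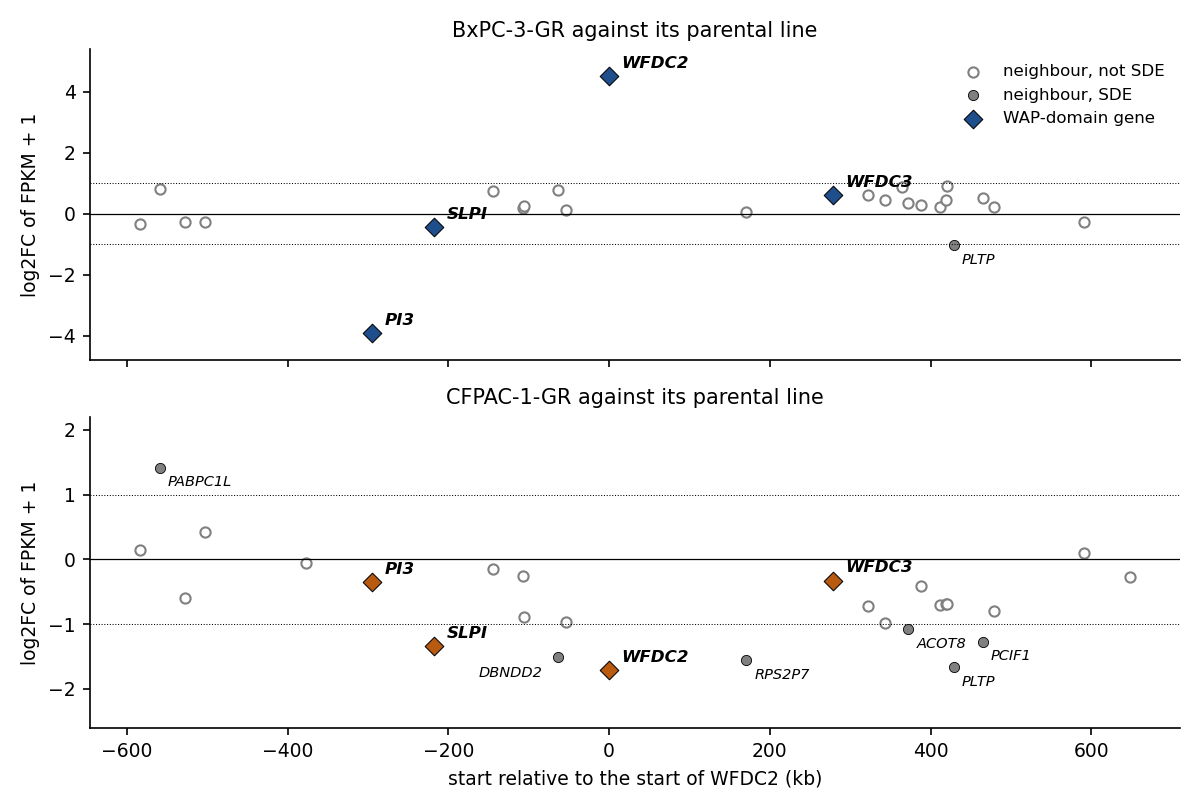
log2FC of FPKM + 1 for the 4 WAP-domain genes (diamonds) and the tested genes within 500 kb of them (circles, filled where SDE), against the distance of each gene's lower coordinate from that of WFDC2 in kb. Dotted lines mark a log2FC of 1 and -1. In BxPC-3-GR WFDC2 is at 4.51 and PI3 at -3.91, and both were chosen with these values known. In CFPAC-1-GR SLPI (-1.34) lies among the neighbours and WFDC2 (-1.71) is next to the lowest of them, PLTP (-1.67).

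Serine proteases, the enzymes that inhibitors such as SLPI and elafin act on, were read from a list of 33. The neutrophil proteases that SLPI and elafin are best known to block, ELANE, PRTN3 and CTSG, were listed at 0 in all 12 libraries. In BxPC-3-GR 11 could be tested, of which 3 rose and 1 fell (36.4%, against 7.76% of all genes), with a median log2FC of 0.62. The tissue plasminogen activator gene PLAT rose from 8.47 ± 0.518 to 90.3 ± 8.80 FPKM (log2FC 3.27, SE 0.086, adjusted p = 3.25e-06). PRSS2, a trypsinogen that shares reads with close relatives, rose by 1.5 (adjusted p = 7.40e-05), and the membrane protease gene TMPRSS4 by 1.07 (adjusted p = 0.000109), which was 0.99 without BxPC-3-GR replicate 3. HTRA1, a secreted protease of the matrix, had a log2FC of -1.92 (SE 0.086, adjusted p = 1.90e-05).

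In CFPAC-1-GR 18 proteases were tested, of which 2 rose and 4 fell (33.3%, against 32.2% of all genes), with a median log2FC of -0.55 as deposited and -0.01 after the correction. The kallikreins KLK5 and KLK6, proteases of shed epithelia, rose by 2.29 (SE 0.20, adjusted p = 4.13e-05) and 1.73 (SE 0.074, adjusted p = 6.25e-06). PRSS3, encoding mesotrypsin, had a log2FC of -2.69 (adjusted p = 6.25e-06), the urokinase gene PLAU of -1.62 (6.97e-05), TMPRSS4 of -1.26 (9.43e-06) and KLK11 of -1.25 (1.39e-05). With the correction KLK11 was at -0.65 and no longer SDE, while PLAT went from -0.48 to -1.09 and became so. PLAU remained abundant, at 202 ± 42.1 FPKM in CFPAC-1-GR against 614 ± 19.6 in CFPAC-1. TMPRSS4 was the one protease SDE in both pairs, in opposite directions.

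Inhibitors without a WAP domain were counted in the same way, from a list of 20. In BxPC-3-GR 7 were tested and 1 fell (14.3%, against 7.76% of all genes, median log2FC -0.10). This was SERPINE2, protease nexin, with a log2FC of -1.07 (SE 0.058, adjusted p = 3.57e-05). TFPI2, a Kunitz inhibitor, was at -0.996 there and passed the limit without BxPC-3 replicate 3 (-1.06) or BxPC-3-GR replicate 1 (-1.03), which made 2 SDE inhibitors. In CFPAC-1-GR 12 were tested, 2 rose and 1 fell (25%, against 32.2% of all genes, median -0.24). The cystatin gene CST6 rose by 1.93 (SE 0.11, adjusted p = 8.04e-06) and TFPI2 by 1.01 (SE 0.075, adjusted p = 2.13e-05), while cystatin C, CST3, had -1.57 (SE 0.084, adjusted p = 7.88e-06). TFPI2 was at 0.06 after the correction, where the counts were 2 up and 2 down, and at 0.97 without either CFPAC-1 replicate 1 or CFPAC-1-GR replicate 2. With both other scalings 1 inhibitor rose and 4 fell.

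Of 14 symbols listed around SLPI and elafin, 13 were found and 6 were tested in each pair. The list was meant for products that bind, anchor or are protected by SLPI or elafin. SORT1 is on it only as a receptor of progranulin. The symbol not found, LORICRIN, is another name of LOR, which was found. In BxPC-3-GR 1 rose and 0 fell (16.7%, against 7.76% of all genes). This was SORT1, a receptor of progranulin (log2FC 2.07, SE 0.30, adjusted p = 0.00160), with a wide spread of 10.4 ± 5.45 FPKM against 1.54 ± 0.102. In CFPAC-1-GR 1 rose and 1 fell (33.3%, against 32.2% of all genes). The fibronectin gene FN1 rose by 1.08 (SE 0.084, adjusted p = 2.66e-05) and TGM2, a transglutaminase, had -1.15 (SE 0.14, adjusted p = 0.000197). Neither was SDE after the correction, with -0.15 for FN1 and -0.92 for TGM2. TGM2 was at -0.99 without CFPAC-1-GR replicate 1, and FN1 at 0.87 and 0.77 with median-of-ratios and upper-quartile scaling.

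Mucosal defence genes, which like SLPI and elafin are made by epithelia against microbes, were read from a list of 21. In BxPC-3-GR 7 were tested, 3 rose and 1 fell (57.1%, against 7.76% of all genes, median log2FC 0.71). PIGR, the receptor that carries immunoglobulin A across epithelia, rose by 3.34 (SE 0.081, adjusted p = 2.74e-06), the chemokine gene CCL20 by 1.99 (SE 0.11, adjusted p = 3.44e-05) and LCN2, the iron-siderophore binding lipocalin, by 1.40 (SE 0.087, adjusted p = 5.99e-05). S100A9, a subunit of calprotectin, had -1.89 (SE 0.062, adjusted p = 6.00e-06).

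In CFPAC-1-GR 10 of these were tested, 3 rose and 4 fell (70%, against 32.2% of all genes, median -0.12). S100A9 rose from 3.14 ± 0.630 to 269 ± 24.5 FPKM (log2FC 6.04, SE 0.13, adjusted p = 2.30e-06), with the serum amyloid genes SAA2 (2.08, adjusted p = 8.00e-06) and SAA1 (1.45, adjusted p = 2.63e-05), which are near-identical in part and may share reads. DMBT1, a mucin-like scavenger receptor, had -3.84 (SE 0.14, adjusted p = 6.25e-06), the lysozyme gene LYZ -1.81 (SE 0.21, adjusted p = 0.000202), the defensin gene DEFB4A, which has a near-identical copy, -1.25 (SE 0.23, adjusted p = 0.00200) and LCN2 -1.13 (SE 0.088, adjusted p = 2.67e-05). LCN2 was at -0.40 after the correction and no longer SDE. Both the protease and the defence genes held SDE genes of either direction in each pair, as the plot of the lists shows.

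**Figure D5:**
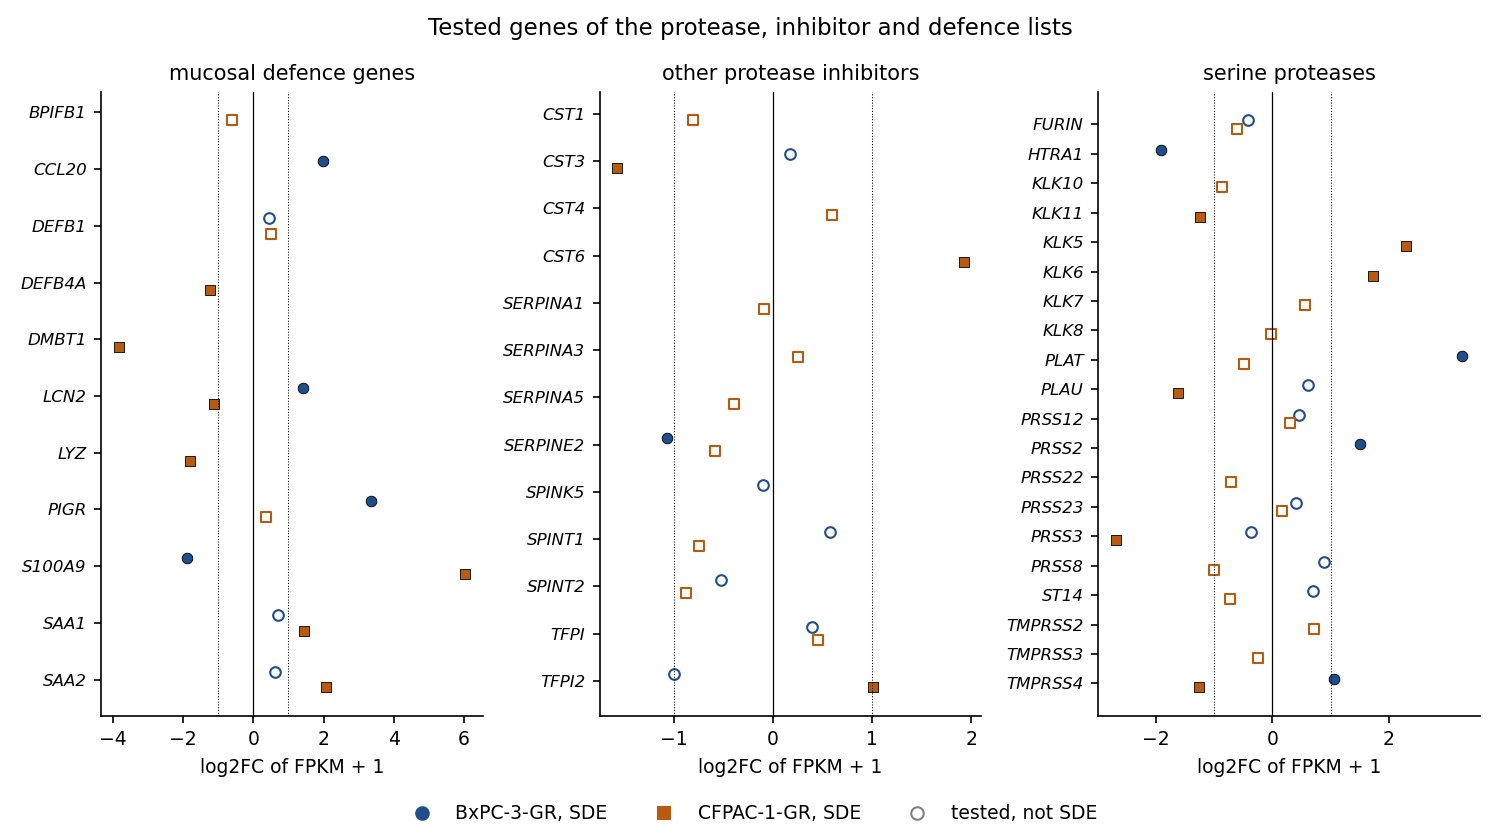
log2FC of FPKM + 1 for each tested gene of the 3 lists, with circles for BxPC-3-GR and squares for CFPAC-1-GR against the parental line, filled where SDE, and dotted lines at 1 and -1. S100A9 (-1.89 and 6.04), LCN2 (1.40 and -1.13) and TMPRSS4 (1.07 and -1.26) are SDE in both pairs, on opposite sides of 0.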

How the data were processed

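RNA of the parental and resistant lines was sequenced in 3 replicates each, and the authors deposited FPKM for 58302 genes, made with GRCh38 and Ensembl release 91 per the methods. The submitters' processing notes name hg19 beside GRCh38, and Trimmomatic 0.27, FastQC 0.10.1 and TopHat2 2.0.8. The counting program and its use of strand are not given in the sources used here. The 4 genes, the gene lists and the alternatives were chosen with earlier results of these data known.

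Lines were compared with limma 3.58.1 in R 4.3.3 on log2(FPKM + 1), leaving out genes whose mean over the libraries fitted was below 1 FPKM, with Benjamini-Hochberg adjustment at 0.05 and an absolute log2FC above 1. The difference of response was an interaction over 12 libraries. The main fits of BxPC-3-GR and of CFPAC-1-GR against the parental line were tested on simulated data. The interaction, the fit between parental lines and the alternatives were not. Named genes were the 4, WAP-domain genes whose mean in a line reached 1 FPKM, SDE neighbours within 500 kb (at most 6 per line and direction), the tested genes next to each of the 4, at most 3 genes per list, line and direction, and the 3 genes most like each by Pearson's r. The list members KLK11 and LCN2 in CFPAC-1-GR, and CA9 and SFN by level, were added to that rule after their values were seen. A member of the inhibitor list is not reported here and was left out of its counts. Gene positions and sequences came from GENCODE 29, which held 58039 of the genes, 97.5% of them at the same locus. Depth was inferred from the steps of low FPKM, of which 99.2% to 99.4% were whole multiples of 1 fragment within 0.02, and it limits WFDC3 most. Alternatives were a pseudocount of 0.1, no minimum level, 1 fit over all libraries, the replicate number as a block, splines with 5 degrees of freedom for the GC content and for the length of genes, median-of-ratios and upper-quartile scaling, and each library left out. Figures were drawn with matplotlib 3.10.9.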

Additional observations from a re-analysis of the deposited data

Results flagged for a closer look

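WFDC2 and WFDC3 are singled out because all libraries of BxPC-3-GR lay above BxPC-3 and all of CFPAC-1-GR below CFPAC-1. Libraries without overlap, in either direction, were common, at 66.1% of the genes tested in the BxPC-3 pair and 82.1% in the CFPAC-1 pair. The difference of response was -6.21 for WFDC2 and -0.95 for WFDC3 (log2 of FPKM + 1), and it was not tested because the genes were chosen for their levels. WFDC3 rests on few fragments, and its difference was -3.21 with a pseudocount of 0.1 and -0.55 with the GC and length correction. With that correction its log2FC in CFPAC-1-GR turned from -0.33 to 0.13, so its opposite directions hold only without it.

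For the genes named around them, the response in CFPAC-1-GR differed from that in BxPC-3-GR by limma's interaction term, in which 38.0% of 12210 genes were SDE. Among the neighbours on 20q13 this difference was -2.28 for DBNDD2 (adjusted p = 1.98e-07), -1.79 for PCIF1 (2.99e-08), -1.61 for RPS2P7 (1.55e-05), -1.42 for ACOT8 (3.03e-06), -1.33 for DNTTIP1 (1.19e-06) and -1.08 for PIGT (1.14e-06). All 6 were on the side of WFDC2 and WFDC3, but they are listed because they were SDE in this contrast. Their common sign is therefore not a count over the tested neighbours. Of the other named neighbours tested here, SDC4 (-0.91) and PLTP (-0.65) were on the same side and PABPC1L (0.59) on the other, none of them SDE. Over all genes, 2885 were SDE upward and 1758 downward. This split was 2019 and 2572 with median-of-ratios scaling and 1878 and 2889 with upper-quartile scaling. With the GC and length correction it was 1134 and 1109. Corrected for GC content and length, DNTTIP1 (-0.69), PCIF1 (-0.96) and RPS2P7 (-0.64) were no longer SDE.

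Among serine proteases the difference was -3.75 for PLAT (adjusted p = 1.73e-07), -2.33 for TMPRSS4 (1.48e-08), -2.32 for PRSS3 (6.11e-08), -2.24 for PLAU (8.23e-07), -1.52 for PRSS2 (4.16e-07), 1.26 for HTRA1 (3.24e-06), 1.63 for KLK6 (3.33e-07) and 2.29 for KLK5 (2.95e-06). Among other inhibitors it was -1.74 for CST3 (adjusted p = 8.61e-08), 2.004 for TFPI2 (3.50e-08) and 2.21 for CST6 (4.27e-08). TFPI2 was at 0.99 after the correction, and HTRA1 and KLK6 lost the call with a pseudocount of 0.1, at 0.78 and 1.20. KLK5, KLK6 and CST6 were below the minimum level in the BxPC-3 pair, PRSS2 and HTRA1 in the CFPAC-1 pair.

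Among mucosal defence genes it was 7.92 for S100A9 (adjusted p = 3.85e-10), 1.45 for SAA2 (1.90e-06), -1.58 for CCL20 (1.16e-06), -2.05 for LYZ (1.66e-05), -2.53 for LCN2 (2.35e-08), -2.97 for PIGR (2.77e-09) and -3.64 for DMBT1 (1.07e-08). LYZ and DMBT1 were below the minimum level in the BxPC-3 pair and CCL20 in the CFPAC-1 pair, and SAA2 was at 0.998 with upper-quartile scaling. In the list of partners of SLPI and elafin, where SORT1 stands only as a receptor of progranulin, it was -1.43 for SORT1 (adjusted p = 0.0321) and -1.003 for TGM2 (0.000224). SORT1 lost the call with no minimum level (-1.43) and without BxPC-3 replicate 1 (-1.43) or 3 (-1.41), BxPC-3-GR replicate 2 (-1.06), CFPAC-1 replicate 2 (-1.36) or 3 (-1.25), or CFPAC-1-GR replicate 1 (-1.25) or 2 (-1.19). TGM2 was at -0.75 after the correction, and between -0.996 and -0.851 without BxPC-3 replicate 3, BxPC-3-GR replicate 2, BxPC-3-GR replicate 3, CFPAC-1 replicate 1 or CFPAC-1-GR replicate 1, each of which ended its call.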

How the results depend on the processing

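WFDC2 and SLPI kept the direction of their log2FC in both pairs under every alternative run, as PI3 and WFDC3 did in BxPC-3-GR. The correction for GC content and length turned PI3 to 0.10, WFDC3 to 0.13, FN1 to -0.15 and KCNS1 to 0.42 in CFPAC-1-GR, PIGT to -0.068 in BxPC-3-GR and WFDC3 between the parental lines to 0.27, with the same values when the replicate block was added, and it gave -3.81 for PI3 in BxPC-3-GR and -1.44 for WFDC2 and -1.01 for SLPI in CFPAC-1-GR. With it, alone and with the block, SDE genes numbered 1042 and 1046 in CFPAC-1-GR, 2243 and 2239 in the difference of response and 3187 and 3185 between parental lines (3880, 4643 and 5286 without it), SDE neighbours numbered 3 in CFPAC-1-GR and 0 in BxPC-3-GR, and partners 0 in CFPAC-1-GR. A pseudocount of 0.1 gave 5.06 for WFDC2, -4.01 for PI3 and 2.01 for WFDC3 in BxPC-3-GR, -1.21 for WFDC3 in CFPAC-1-GR, 1429 SDE genes, 3 SDE neighbours and 2 inhibitors in BxPC-3-GR, and no minimum level gave 2 neighbours there. Median-of-ratios scaling gave -3.86 for PI3 and 0 SDE neighbours in BxPC-3-GR, and for CFPAC-1-GR it gave -2.00 for WFDC2, -1.64 for SLPI, -0.64 for PI3, 11 neighbours and 5 inhibitors. Upper-quartile scaling gave -2.12, -1.77 and -0.77 for these, -0.42 for WFDC3, 14 neighbours, 11 proteases and 5 inhibitors, and turned PIGR to -0.055. The median log2FC of all genes in CFPAC-1-GR was 0.13 as deposited, -0.11 and -0.21 with the 2 scalings. The cause of these changes was not tested. Without single libraries, SDE neighbours in BxPC-3-GR numbered 0 (without BxPC-3-GR replicate 1) to 1, inhibitors there 1 to 2 (2 without BxPC-3 replicate 3 or BxPC-3-GR replicate 1) and partners in CFPAC-1-GR 1 to 3 (1 without CFPAC-1-GR replicate 1), and PI3 in CFPAC-1-GR lay between -0.42 and -0.24.

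Whether the replicate numbers pair the samples cannot be told from 3 libraries per line. The correlation of deviations of same-numbered libraries was 0.0959, -0.0521 and 0.0584 in the BxPC-3 pair and 0.000145, -0.143 and -0.0671 in the CFPAC-1 pair. Libraries of different numbers gave -0.113 to 0.0458 in the BxPC-3 pair and -0.0568 to 0.128 in the CFPAC-1 pair. With the replicate number as a block, 908 and 3883 genes were SDE (909 and 3880 without), and the log2FC of the 4 genes was the same. Not every library correlated best with its own number.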
